A study of Mus musculus with 3 samples.

Results

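Periportal hepatocytes were described in 3 mouse liver libraries as the hepatocytes that carried the most periportal and the least pericentral mRNA of their own library. Hepatocytes were barcodes with 3 to 30% of their unique molecular identifiers (UMIs, 1 per captured mRNA molecule) in mitochondrial genes, at least 20 UMIs of Alb, Apob and Cps1 together, and 0 UMIs of Ptprc, Cd3e, Cd79a, Ptprb, Krt19 and Col3a1, which mark leukocytes, endothelial cells, cholangiocytes and fibroblasts. They were ranked by the natural log of the UMIs of 7 pericentral genes plus 1 (Glul, Oat, Slc1a2, Cyp2e1, Cyp1a2, Cyp2c29, Gulo) over those of 7 periportal genes plus 1 (Cyp2f2, Hal, Sds, Pck1, Gls2, Hsd17b6, Aldh1b1), and the lowest of 3 equal parts was taken in each library. The members were thus selected on the measured UMIs of these genes, and what those genes show is no finding. They numbered 1464 of 4395 hepatocytes and of 36990 barcodes, with 387 of 1161 hepatocytes in CON, 278 of 835 in HFD and 799 of 2399 in CCl4.

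The CON library came from untreated mice. The HFD library came from mice that ate for 4 months a diet drawing 60% of its calories from fat, and the CCl4 library from mice kept on chow for 3 months and then injected intraperitoneally with 0.1 mL of a 10% solution of the hepatotoxin carbon tetrachloride, 2 times a week for 4 weeks. All were male wild-type C57BL/6 mice that entered at 8 weeks of age, and the age of the CON mice at sampling was not given in the sources used here. Each library pooled 2 mice, perfused with collagenase, and hepatocytes were mixed with nonparenchymal cells in equal numbers before loading. With 1 library per condition there was no replicate check, so no p-value is given, and every interval below covers counting error only.

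Blood enters the liver lobule from the portal vein and hepatic artery and drains to the central vein, and hepatocytes divide their work along this axis. Periportal hepatocytes receive blood rich in oxygen, nutrients and hormones and are known for gluconeogenesis, urea synthesis from ammonia, amino acid breakdown and secretion of plasma proteins. Pericentral hepatocytes make glutamine, oxidise drugs with cytochrome P450 enzymes and begin bile acid synthesis, under Wnt signals from the central vein.

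The libraries held 11245 barcodes in CON, 12984 in HFD and 12761 in CCl4, with 49613255, 34985786 and 34061186 UMIs in all and medians of 2939, 2336 and 2173 UMIs per barcode. Hepatocyte mRNAs were also counted in barcodes of other cells, a background that was set beside the values of the members. In barcodes with at least 3 UMIs of 7 lymphocyte genes and under 3% mitochondrial UMIs (3034, 1511 and 990 barcodes), Alb stood at 3960 UMIs per 1000000 UMIs (counts per that total, CPM) in CON, 16087 in HFD and 34731 in CCl4, against 35824, 55656 and 69748 in the members. The requirement of 20 UMIs of Alb, Apob and Cps1 was met by 4664 barcodes in CON, by 12973 in HFD and by all 12761 in CCl4, so in the treated libraries it removed almost nothing and the mitochondrial share did most of the selection. The mitochondrial limit of 3% left out 84.9% of the barcodes in CON, 92.8% in HFD and 79.7% in CCl4. Between 36 and 52 barcode sequences were shared by any pair of libraries, and 0 of them belonged to members of both.

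The score genes are given first as a description of the choice. The 7 periportal genes summed to 3670 CPM in the CON members, 6019 in HFD and 7786 in CCl4, and to 2431, 2318 and 5846 CPM in the remaining hepatocytes. The 7 pericentral genes summed to 117, 698 and 30.4 CPM in the members and to 5304, 10918 and 1050 CPM in the remaining hepatocytes. Cyp2f2, a periportal cytochrome P450, had 1223 CPM in the CON members, 993 in the middle part of the ranking and 62.5 in the upper part, and 2084, 1159 and 78.8 CPM in HFD. In CCl4 these values were 1360, 1340 and 1084 CPM, so Cyp2f2 hardly separated the members from the middle part there. Hal, the first enzyme of histidine breakdown, and Sds and Gls2, which release nitrogen from serine and glutamine, followed the same order, whereas Pck1, a key step of gluconeogenesis, had 1538, 1411 and 1744 CPM over the 3 parts in CON and did not separate them there. In HFD Pck1 had 2121, 1636 and 826 CPM and in CCl4 3447, 2915 and 2126 CPM, in the order of the others. All 4 of Cyp2f2, Hal, Sds and Gls2 were detected in 61.5% of the CON members, 36.3% in HFD and 75.1% in CCl4. Lymphocyte barcodes, which should lack them, held a UMI of Cyp2f2 in 24.9% of cases in CON, 58.0% in HFD and 74.2% in CCl4, at median depths of 2442, 2355 and 2090 UMIs, against 99.7%, 99.6% and 98.9% of the members.

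**Figure D1:**
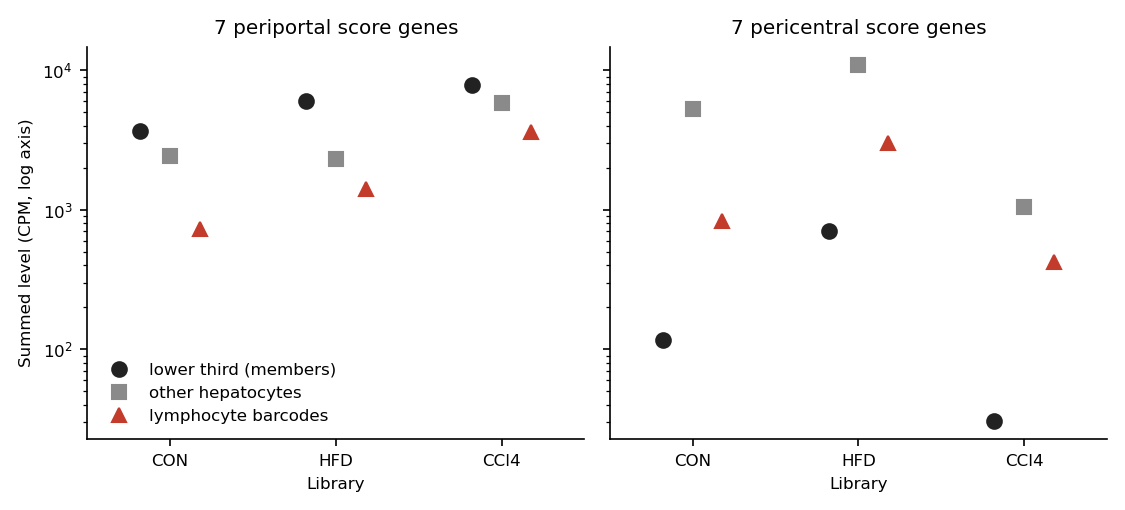
Summed level in CPM (log axis) of the 7 periportal and 7 pericentral score genes in the members, the other hepatocytes and lymphocyte barcodes of each library. The members lay above the other hepatocytes in periportal genes (3670 against 2431 CPM in CON) and below both other groups in pericentral genes, and the periportal level of lymphocyte barcodes reached 3600 CPM in CCl4.

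The label held less well in CCl4. Only 4.29% of the CCl4 hepatocytes (103 cells) had more pericentral than periportal UMIs, against 36.0% in CON and 45.9% in HFD, and lymphocyte barcodes of the CCl4 library had a median score of -1.61 themselves. At a single score limit for the 3 libraries, that of the CON members on UMIs scaled to 1000 per cell, 83.0% of the CCl4 hepatocytes would have been chosen, 24.6% in HFD and 33.3% in CON. The highest score inside the limit was -2.28 in CON, -1.34 in HFD and -3.04 in CCl4 and the lowest score outside it was -2.28, -1.335 and -3.04, and in CCl4 55 cells were tied at the limit, of which 16 were taken. In CCl4 the members are therefore the most periportal part of hepatocytes that nearly all scored as periportal.

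The members were also the deeper cells. Their median depth was 11258 UMIs in CON, 4413 in HFD and 4323 in CCl4, whereas the middle part of the ranking had 6015, 2900 and 2598 UMIs and the upper part 7133, 3488 and 2575. The score rests on raw UMIs, and ranking by UMIs scaled to 1000 per cell kept 82.9% of the CON members, 96.8% in HFD and 67.5% in CCl4. At 1000 UMIs per cell the median number of genes was 535 in the CON members and 541 and 584 in the middle and upper parts, 557, 570 and 583 in HFD, and 549, 543 and 557 in CCl4. The median mitochondrial share of the members was 7.05% in CON, above the 6.71% and 5.67% of the middle and upper parts. In HFD it was 4.69%, below their 5.48% and 5.21%, and in CCl4 4.81%, below their 6.15% and 5.59%.

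For genes outside the rule, UMIs were summed over the members and over the remaining hepatocytes of the same library, and genes with at least 50 CPM on either side were compared by the ratio of CPM plus 5. Every gene of these cells counts as used by the ranking, so the values describe the members and test nothing. In CON 60 of 2440 genes were at least 1.5 times higher in the members (2.46%) and 151 at least 1.5 times lower (6.19%). In HFD these were 129 and 200 of 2643 genes (4.88% and 7.57%), and in CCl4 6 and 19 of 2431 (0.247% and 0.782%). The CCl4 counts depended on how the members were taken: at the score limit of the CON members, chosen after the data were seen, 50 genes were higher and 95 lower, and against the upper part alone 16 and 50. Scaling to UMIs outside mitochondrial genes and the 20 most abundant others raised the share of higher genes among all those counted from 28.4% to 41.8% in CON and from 39.2% to 50.1% in HFD. In CCl4 it moved the counts from 6 higher and 19 lower to 7 and 33. The 20 most abundant genes held 24.5% of the UMIs of the CON members and 20.6% of those of the remaining hepatocytes.

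Of the 60 genes higher in CON, 27 (45.0%) were also at least 1.5 times higher in HFD, and these made up 20.9% of the 129 HFD genes. Of the 60, 41 could be compared in HFD and 42 in CCl4. In CCl4 1 of the 42 reached the limit and 35 had a ratio above 1, with a median of 1.14. Of the genes lower in the members, 75 were shared by CON and HFD (49.7% of the CON and 37.5% of the HFD genes), 11 were lower in all 3 libraries, and 0 were higher in all 3.

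Among the 2035 genes that reached 50 CPM in all 3 libraries, those that led the members by the geometric mean of the 3 ratios of CPM plus 5 were Serpina12, Ctsc, Hsd17b13, Slc3a1, Mup20, Gldc, Gas2, Amdhd1, Ly6e and Sfxn1. Ctsc, a lysosomal protease that activates serine proteases of immune cells, had 525 CPM in the CON members, 399 in the middle part and 18.3 in the upper part. Its values were 236, 137 and 8.76 CPM in HFD and 239, 237 and 140 CPM in CCl4. The members were 2.54 times the remaining hepatocytes in CON (95% counting interval 2.37 to 2.73), 3.41 times in HFD (2.77 to 4.21) and 1.26 times in CCl4 (1.15 to 1.39). In CON and HFD most of that gap lay between the middle and upper parts, and in CCl4 the members and the middle part were level.

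Hsd17b13, a lipid droplet protein of hepatocytes known for a human variant that protects from fatty liver disease, had 559, 426 and 35.9 CPM over the 3 parts in CON and 678, 461 and 36.0 CPM in HFD. In CCl4 it had 778, 822 and 634 CPM, with a ratio of 1.07 (1.02 to 1.12) against 2.45 in CON and 2.86 in HFD. Serpina12, which encodes the adipokine vaspin, had 135, 86.6 and 13.5 CPM in CON, 74.0, 37.0 and 5.84 CPM in HFD, and 217, 176 and 144 CPM in CCl4. The CCl4 lymphocyte barcodes carried 238 CPM of Serpina12, more than the members did, so that value cannot be told apart from the background. Slc3a1, a subunit of the cystine and dibasic amino acid transporter, was 2.21 times higher in CON, 2.63 times in HFD and 1.29 times in CCl4. Gldc, the decarboxylase of the glycine cleavage system, was 1.95, 2.47 and 1.197 times higher, and Amdhd1, the third enzyme of histidine breakdown after Hal and Uroc1, 1.94, 2.27 and 1.17 times. Sfxn1, the mitochondrial serine carrier, was 1.71, 2.37 and 1.19 times higher. Mup20, a major urinary protein that acts as a pheromone, had 21158 CPM in the CON members, 21182 in HFD and 11018 in CCl4, with ratios of 1.86, 2.16 and 1.41. Major urinary protein genes are near copies of each other, so the split of their UMIs among Mup11, Mup17, Mup20 and Mup21 is uncertain.

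In the members of HFD the highest ratio of CPM plus 5 among those genes outside the rule belonged to Fgfr2, a receptor tyrosine kinase for fibroblast growth factors. It had 73.2 CPM in the members and 15.4 in the remaining hepatocytes (4.75 times, 3.12 to 7.43), and 68.0 and 23.4 CPM in CON. Cdh1, the E-cadherin of cell junctions and a known periportal marker, followed with 166 against 41.1 CPM in HFD (4.04 times, 3.11 to 5.30) and 149 against 59.9 in CON (2.48 times). In CCl4 Cdh1 was low in every part, with 22.7 CPM in the members, 30.2 in the middle part and 11.0 in the upper part. Etnppl, which breaks down phosphoethanolamine, had 187 against 60.1 CPM in HFD and 426 against 282 CPM in CCl4. Fst, a secreted antagonist of activin, had 72.4 against 26.2 CPM in HFD, and Cryl1, of the uronate pathway, 60.6 against 15.9 CPM. In CON the list also held Esr1, the estrogen receptor, at 90.9 against 37.2 CPM, Cxcl10, an interferon-induced chemokine, at 70.0 against 28.1 CPM, and Otud1, a deubiquitinase, at 73.5 against 25.1 CPM. Cxcl10 had 1.57 CPM in the HFD members, from 2 UMIs, and 4.803 in CCl4, against 6.16 and 11.4 CPM in the remaining hepatocytes. The HFD ratio had a counting interval that included 1 (0.0278 to 1.15). Lymphocyte barcodes held 55.1 CPM of Cxcl10 in HFD and 34.4 in CCl4. In CCl4 the members led in Defb1, a beta-defensin, at 73.4 against 38.4 CPM (1.91 times, 1.58 to 2.31), Mup21 (1.64 times), Serpina1e, an alpha-1-antitrypsin gene with close copies (1.61 times), Tstd1 (1.57 times), Atp1b1, a sodium pump subunit (1.501 times), and Hes1, a Notch target (1.45 times). The 5% of CCl4 members with most Mup21 held 52.8% of its UMIs, and lymphocyte barcodes carried 271 CPM of it against 372 in the members. The CCl4 lymphocyte barcodes held 614 CPM of Serpina1e against 1429 in the members, 39.5 CPM of Defb1 and 72.6 CPM of Tstd1, the latter close to the 77.4 CPM of the members.

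Among the 2035 genes compared in all 3 libraries, the lowest in the members by the geometric mean of the 3 ratios were Cyp2c50, Lect2, Rgn, Aldh3a2, Cyp3a11 and Rnase4. In CON the lowest ratio of CPM plus 5 belonged to Mup17, a urinary protein gene with 22.0 against 1580 CPM, ahead of Cyp2c37, a cytochrome P450 with 3.52 against 291 CPM, and Mup11, with 99.5 against 2804 CPM. In HFD the lowest were Cyp2c37 at 22.0 against 510.1 CPM, Lpl, lipoprotein lipase, at 2.36 against 79.6 CPM, and Serpina7, the carrier of thyroid hormone in plasma, at 11.0 against 179 CPM. Cyp2c50, a P450 of the same family as Cyp2c37, had 20.9 CPM in the CON members, 137 in the middle part and 1162 in the upper part. The same order was seen in HFD, with 150, 618 and 2000 CPM, and in CCl4, with 45.4, 77.6 and 450 CPM. Its ratio was 0.0319 in CON, 0.112 in HFD and 0.172 in CCl4. Rgn, a lactonase of ascorbate synthesis, had ratios of 0.0645, 0.158 and 0.308. Lect2, a secreted hepatokine, had 0.0579, 0.0785 and 0.286, and Aldh3a2, a fatty aldehyde dehydrogenase, 0.0615, 0.106 and 0.422. Cyp3a11, the main drug-oxidising P450 of its family, differed from these: its ratio was 0.720 in CON, 0.289 in HFD and 0.137 in CCl4. Rnase4, a secreted ribonuclease, had ratios of 0.500, 0.344 and 0.279. Lymphocyte barcodes carried more of several of these mRNAs than the members did, for example 78.4, 407 and 107 CPM of Cyp2c50 and 33.4, 92.4 and 65.7 CPM of Lect2.

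**Figure D2:**
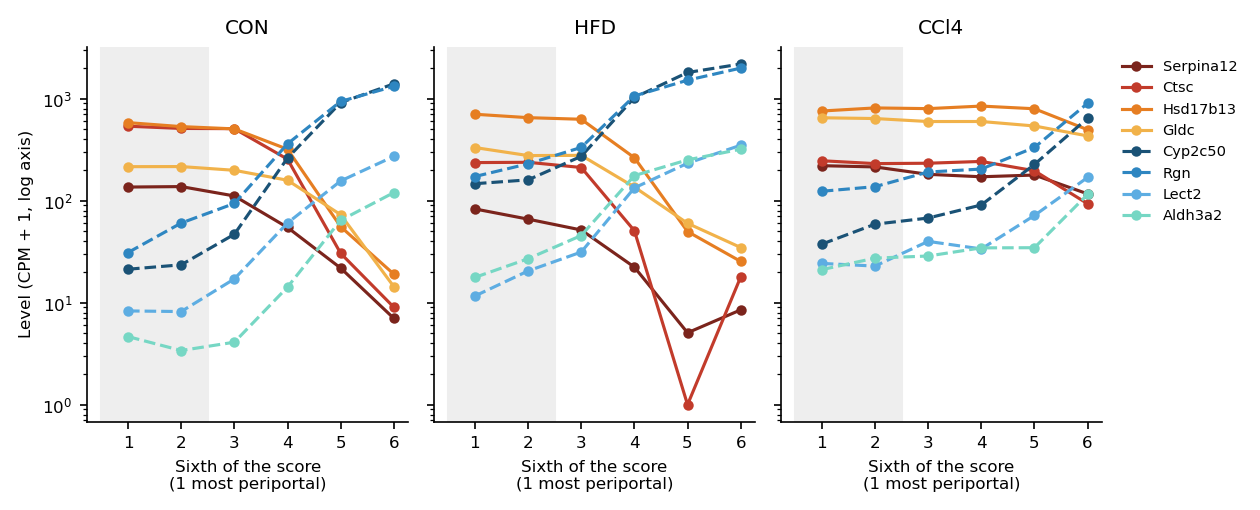
Level in CPM plus 1 (log axis) of 4 genes that led the members (solid) and 4 that were lowest (dashed) over 6 equal parts of the score in each library. The shaded parts 1 and 2 are the members; Ctsc went from 536 to 8.02 CPM between parts 1 and 6 in CON and from 245 to 92.4 CPM in CCl4, where the solid lines changed less.

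The start sites of 4 of these genes are shown because each carries a short motif whose binding factor is known from liver zonation: TCF/LEF factors, which act downstream of Wnt, and the hepatocyte factor HNF4A. The windows run from 250 bases before to 50 after the gene start, read 5′ to 3′ on the gene's strand, from RefSeq on GRCm38.p6. Capitals mark TCF/LEF letters (CTTTGAT, or ATCAAAG on the opposite strand) in Serpina12 and Lect2 and HNF4A letters (CAAAGTCCA) in Slc3a1 and Cyp3a11. The 2 motifs share the letters CAAAG and can overlap.
Serpina12, chr12:104044394-104044693, minus strand: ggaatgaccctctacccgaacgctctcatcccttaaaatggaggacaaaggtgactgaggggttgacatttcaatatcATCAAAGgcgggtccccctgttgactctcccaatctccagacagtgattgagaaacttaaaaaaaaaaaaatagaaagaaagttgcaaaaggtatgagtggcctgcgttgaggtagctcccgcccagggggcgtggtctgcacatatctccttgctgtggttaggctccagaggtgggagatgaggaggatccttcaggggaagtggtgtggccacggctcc
Slc3a1, chr17:85028097-85028396, plus strand: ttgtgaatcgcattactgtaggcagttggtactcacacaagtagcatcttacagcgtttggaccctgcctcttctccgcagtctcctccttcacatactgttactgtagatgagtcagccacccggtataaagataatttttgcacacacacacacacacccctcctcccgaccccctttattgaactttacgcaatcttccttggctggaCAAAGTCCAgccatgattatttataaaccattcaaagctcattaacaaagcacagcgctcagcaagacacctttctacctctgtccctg
Lect2, chr13:56548489-56548788, minus strand: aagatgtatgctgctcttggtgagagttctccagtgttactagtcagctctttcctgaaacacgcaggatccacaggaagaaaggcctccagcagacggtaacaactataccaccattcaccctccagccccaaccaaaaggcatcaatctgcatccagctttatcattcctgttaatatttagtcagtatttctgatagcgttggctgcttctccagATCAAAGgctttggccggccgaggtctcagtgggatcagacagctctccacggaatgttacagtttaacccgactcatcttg
Cyp3a11, chr5:145879805-145880104, minus strand: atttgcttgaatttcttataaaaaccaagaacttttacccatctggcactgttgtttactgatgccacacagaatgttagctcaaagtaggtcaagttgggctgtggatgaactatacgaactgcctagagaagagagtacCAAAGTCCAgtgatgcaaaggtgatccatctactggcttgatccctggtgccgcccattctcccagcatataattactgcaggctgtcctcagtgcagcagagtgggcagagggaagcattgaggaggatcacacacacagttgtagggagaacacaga
Of the 10 genes that led the members 8 had an entry, with 9 windows, and 1 of these held each of the 2 motifs. Of the 6 lowest genes 5 had an entry, with 6 windows, and again 1 held each motif. Over all 32851 windows of the same length, 3.73% held the TCF/LEF letters and 0.475% the HNF4A letters on either strand. Letters for CREB (TGACGTCA, 1.79% of all windows) and C/EBP (TTGCGCAA, 0.183%) were in 0 of these windows.

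Known landmarks of the portal zone outside the rule were mostly higher in the members. At a limit of 1.2 times, 9 of 16 measured periportal landmarks were higher in CON against 8.69% of all genes, 16 of 18 in HFD against 18.9%, and 3 of 18 in CCl4 against 2.59%. Their median ratio of CPM plus 5 was 1.23, 1.72 and 1.10, while that of all genes compared was 0.930, 0.961 and 1.00. Of 30 landmarks of the central zone, 17 were measured in CON, 22 in HFD and 12 in CCl4. At least 1.2 times lower were 17 in CON (24.7% of all genes), 22 in HFD (26.5%) and 11 in CCl4 (4.98%), with medians of 0.268, 0.250 and 0.646. A gene under 50 CPM in the members was measured only if the remaining hepatocytes reached 50 CPM, so its direction was fixed by that limit. The same holds in reverse for periportal landmarks under 50 CPM in the remaining hepatocytes. These counts are therefore a description and no test. In CCl4 the 3 periportal landmarks became 18 at the score limit of CON, 12 against the upper part alone and 10 for scores per 1000 UMIs. In CON 13 of the 16 periportal landmarks had a ratio above 1, and the 1 that was at least 1.2 times lower was Tat, the aminotransferase that starts tyrosine breakdown, at 1097 against 1455 CPM. Tat was higher in the HFD members (1228 against 866 CPM) and in CCl4 (2400 against 2056 CPM).

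**Figure D3:**
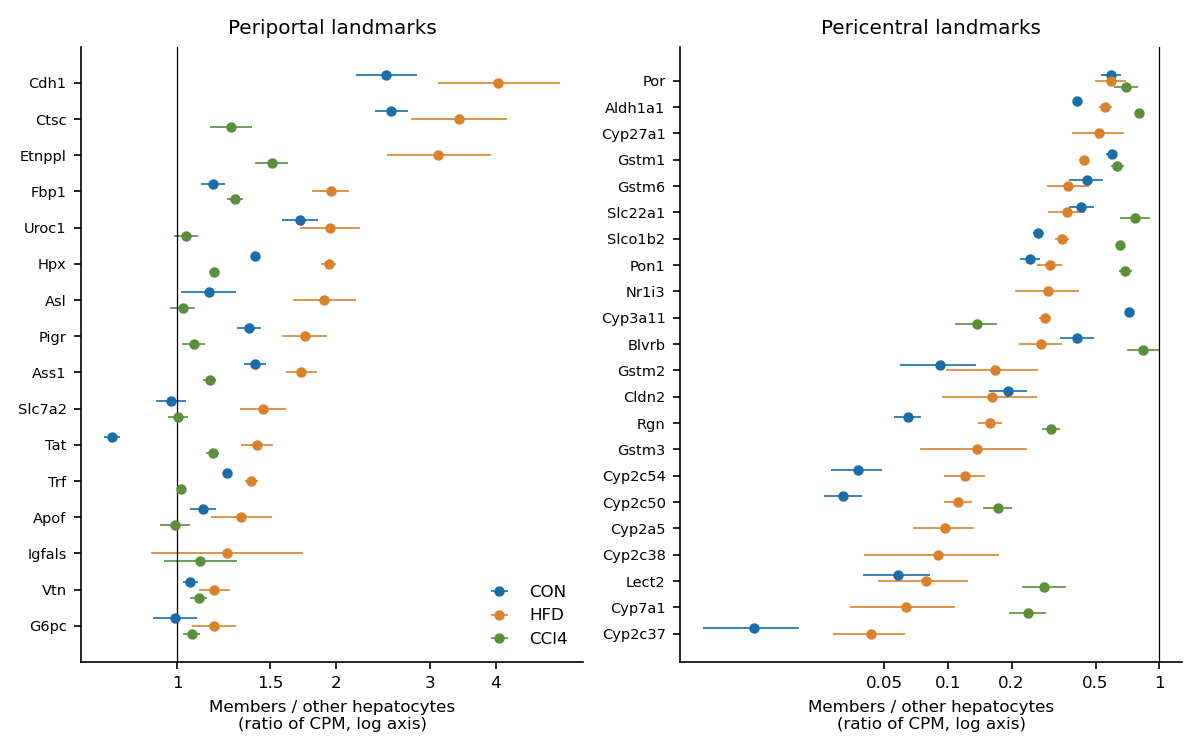
Ratio of CPM between the members and the other hepatocytes (log axis) for the periportal and pericentral landmark genes reported here with at least 50 CPM in HFD, with 95% counting intervals and points only where a library also reached 50 CPM. HFD points lie right of 1 for all periportal landmarks shown (Cdh1 4.04, G6pc 1.18), and CCl4 points lie closest to 1 in most rows, with Cyp3a11 (0.137 in CCl4) as an exception.

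In HFD the contrast depended on how hepatocytes were chosen. Keeping only hepatocytes whose share of Alb, Apob and Cps1 exceeded the 95th percentile of lymphocyte barcodes, a limit added after the data were seen, gave 24 genes higher and 54 lower, and 8 periportal landmarks past 1.2 times. It left out 1.08% of the HFD members, 19.1% of the middle part and 89.6% of the upper part. The cells left out of the upper part had 18013 CPM of the pericentral score genes, against 2980 CPM in lymphocyte barcodes and 13710 CPM in the upper-part cells that were kept. Alb, which the limit uses, had 55656, 42142 and 19180 CPM over the 3 parts of this library. What part free RNA had in the change of these counts was not tested.

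The lists of liver functions are counted at the same limit of 1.2 times, beside all genes compared, of which 8.69% were higher and 24.7% lower in CON, 18.9% and 26.5% in HFD, and 2.59% and 4.98% in CCl4. In the urea cycle, Ass1, which joins citrulline and aspartate, was 1.40 times higher in the CON members (785 against 559 CPM), 1.72 times in HFD (1438 against 838) and 1.15 times in CCl4 (2584 against 2243). Otc, which forms citrulline, was 1.34, 1.54 and 1.08 times higher, and Asl, which cleaves argininosuccinate, 1.15, 1.90 and 1.02 times. Glud1, glutamate dehydrogenase, went the other way at 0.746, 0.620 and 0.929. Of 11 measured genes of the urea cycle and nitrogen handling, 3 were at least 1.2 times higher and 2 lower in CON, 5 and 2 in HFD, and 0 and 0 in CCl4, with medians of 0.968, 1.09 and 1.08. Among 20 measured genes of amino acid catabolism in CON, 4 were higher and 10 lower. The 4 included the histidine enzymes Uroc1 (1.71 times), Amdhd1 and Ftcd (1.49 times) and the glycine enzyme Gldc, and the 10 included Hpd (0.495) and Tat (0.754) of tyrosine breakdown. In HFD 8 of 21 were higher and 3 lower, and in CCl4 2 and 0 of 21, with medians of 0.874, 1.10 and 1.08 over the 3 libraries. Of 8 amino acid transporters 2 were higher and 1 lower in CON, 7 and 1 in HFD, and of 7 in CCl4 1 was higher and 0 lower, with medians of 1.00, 1.29 and 1.00. The lower one in CON and HFD was Slc16a10, a carrier of aromatic amino acids, at 20.0 against 65.3 CPM and 32.3 against 89.9 CPM.

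Gluconeogenic genes were close to level in CON, where 1 of 10 was higher and 1 lower, and their medians were 0.993 in CON, 1.18 in HFD and 1.08 in CCl4. In HFD 4 of 10 were higher and 2 lower, the latter Pgk1 (0.777) and Gpd1 (0.817). The higher ones included Fbp1, fructose-1,6-bisphosphatase, at 1093 against 560 CPM (1.95 times) and Slc37a4, the glucose-6-phosphate carrier of the endoplasmic reticulum, at 81.1 against 52.4 CPM (1.55 times). In CCl4 2 of 11 were higher and 0 lower, with Fbp1 at 1.29 times and Ppargc1a, a coactivator of the fasting response, at 1.39 times.

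Secreted plasma proteins were higher in the members for 11 of 32 genes in CON and 21 of 31 in HFD, and for 2 of 31 in CCl4 (medians 1.15, 1.33 and 1.02), and lower for 1, 1 and 0. Hpx, the haem-binding hemopexin, had 12248 CPM in the CON members, 12082 in the middle part and 5412 in the upper part. In HFD it had 6473, 5004 and 1862 CPM. The 3 fibrinogen chains Fga, Fgb and Fgg were 1.14, 1.22 and 1.26 times higher in CON and 1.46, 1.51 and 1.53 times in HFD, with 1.02, 1.00 and 0.988 in CCl4. Acute-phase genes, which the liver makes in inflammation, were higher for 4 and lower for 0 of 15 genes in CON, 6 and 2 of 11 in HFD, and 0 and 0 of 10 in CCl4. Apoa4, an apolipoprotein of lipid transport, was 2.03 times higher in CON and 2.02 times in HFD and level in CCl4 (1.00), although its level in the HFD members was low, 75.6 CPM against 2033 in CON and 982 in CCl4. Igf1, the main growth factor made by the liver, was 1.12, 1.57 and 1.14 times higher. Of its list of hormone and growth factor genes 0 were higher and 5 lower of 9 in CON, 3 and 1 of 9 in HFD, and 0 and 1 of 9 in CCl4, with Ghr, the growth hormone receptor, at 0.573, 0.935 and 0.982. Midlobular genes, known to peak between the zones, were higher for 0 and lower for 3 of 4 in CON, 1 and 2 of 5 in HFD, and 0 and 3 of 5 in CCl4.

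Of 21 measured genes of fatty acid oxidation and ketone body synthesis 0 were higher and 12 lower in the CON members, with a median of 0.810. In HFD 1 of 22 was higher and 12 lower (median 0.816), and in CCl4 0 and 3 of 21 (median 0.964). The omega-hydroxylase Cyp4a10 was at 0.650, 0.576 and 0.721 of the remaining hepatocytes. Cholesterol synthesis and uptake leaned toward the members in CON, where 8 of 19 genes were higher and 1 lower (median 1.13). In HFD 6 of 17 were higher and 1 lower (median 1.13), and in CCl4 0 and 2 of 12 (median 0.965). Sqle, squalene epoxidase, was 1.33 times higher in CON (389 against 291 CPM) and 2.13 times in HFD (198 against 93.0 CPM), and Insig1, a sterol sensor, 1.21 and 1.42 times. In CCl4 Sqle had a ratio of 0.984 (0.781 to 1.24). Genes of fatty acid synthesis and glycolysis, counted as 1 list, were higher in the HFD members for 8 of 12 and lower for 2, with Acly, ATP citrate lyase, at 480 against 264 CPM (1.82 times) and Fasn, fatty acid synthase, at 875 against 534 CPM (1.64 times). The medians were 1.03 in CON, 1.36 in HFD and 0.919 in CCl4. In CON 2 of 9 were higher and 4 lower, and in CCl4 0 and 3 of 12. Scd1, the stearoyl-CoA desaturase, was at 0.805 in CON, 1.01 in HFD and 0.603 in CCl4.

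In the bile acid group, Cyp7a1, the rate-limiting enzyme of bile acid synthesis, had 11.0 CPM in the HFD members and 174 in the remaining hepatocytes, and 32.0 against 134 CPM in CCl4. Its level in the CON members was 0.881 CPM, from 4 UMIs. Slco1b2, an uptake carrier for bile acids and drugs, was at 0.266, 0.345 and 0.653, and Cyp7b1, of the alternative pathway, at 0.619, 0.649 and 0.806. Of the group as a whole 4 genes were higher and 7 lower of 12 in CON, 1 and 7 of 14 in HFD, and 0 and 5 of 12 in CCl4 (medians 0.822, 0.805 and 0.838). Nr0b2, a nuclear receptor that represses Cyp7a1, was 1.60 times higher in CON.

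Immediate-early genes, which respond within minutes to growth factors and to tissue dissociation, were also counted. Of 6 measured genes 3 were at least 1.2 times higher in CON, 5 in HFD and 1 in CCl4, and 0 were lower, with medians of 1.23, 1.34 and 1.04. Fos had 865 against 507 CPM in CON (1.71 times), 640 against 384 in HFD (1.67 times) and 1018 against 832 in CCl4 (1.22 times), and Atf3 was 1.72, 1.53 and 1.04 times higher. The part of cell isolation in these values was not tested. Of 14 or 15 nuclear-encoded respiratory chain genes 0 differed by 1.2 times in CON and CCl4, and 1, Sdhb, in HFD.

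Spp1, the secreted glycoprotein osteopontin, had the highest ratio of CPM plus 5 in the CON members among genes outside the rule with at least 50 CPM. It had 447 CPM there, 298 in the middle part and 25.5 in the upper part (2.79 times the remaining hepatocytes, 2.58 to 3.02), and a UMI of it was found in 54.3% of the members against 9.92% of lymphocyte barcodes. In HFD it had 53.5, 137 and 15.6 CPM, and the lymphocyte barcodes 141 CPM. In CCl4 its ratio was 1.71, but the 5% of members with most Spp1 held 82.1% of its UMIs. Its ratio of CPM plus 5 there, 1.66, turned to 0.889 for the lowest 25% of scores and 0.846 for scores on scaled UMIs. Under the stricter hepatocyte limit it was 0.781. Sox9, a transcription factor of bile duct cells that is also known in hepatocytes next to the portal tract, was detected in 71.6% of the CON members, 18.3% in HFD and 31.5% in CCl4, against 4.12%, 1.26% and 4.34% of lymphocyte barcodes. Its level was 203 against 124 CPM in CON (1.64 times, 1.49 to 1.81), 44.9 against 13.9 in HFD (3.24 times, 2.01 to 5.32) and 97.1 against 69.4 in CCl4 (1.40 times, 1.21 to 1.62). Both mRNAs were found in 149 of the 387 CON members (38.5%), in 22.2% of the middle part and in 2.84% of the upper part. Median depth over these parts was 11258, 6015 and 7133 UMIs. It was 4413 in the HFD members, 4323 in the CCl4 members and 2442 in CON lymphocyte barcodes, so these detection shares are not matched for depth. Both belong to the cholangiocyte marker list. The other 3 of its 5 genes were near 0 in the members: Krt7 had 0, 0 and 0.267 CPM, Cldn7 0.440, 0.787 and 0.267 CPM, and Epcam 2.86, 0.787 and 0.534 CPM, below the 12.6, 18.3 and 4.29 CPM of lymphocyte barcodes. In CON a UMI of Epcam was found in 12 of the 387 members, in 3 of 387 cells of the middle part and in 1 of 387 of the upper part, the same order as Spp1 and Sox9. In HFD it was found in 1, 3 and 0 cells over the 3 parts and in CCl4 in 2, 3 and 2, where that order did not hold. The part of bile duct RNA in these values was not tested.

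Markers of other cell types were low in the members, and apart from the cholangiocyte list each list summed to less than in lymphocyte barcodes. Members were chosen for 0 UMIs of Ptprc, Cd3e, Cd79a, Ptprb, Krt19 and Col3a1, and lymphocyte barcodes for their lymphocyte mRNAs. The lower sums of lymphocyte markers were therefore fixed by the choice and are no finding. The 6 sinusoidal endothelial markers summed to 5.50 CPM in CON, 4.72 in HFD and 9.07 in CCl4, led by Fcgr2b, with 4 of them at 0 UMIs in HFD. The 6 Kupffer cell markers summed to 0.661, 2.36 and 0.267 CPM, with Clec4f and Vsig4 at 0 in all 3 libraries. The 4 T cell markers summed to 4.18, 3.94 and 5.07 CPM, the 4 B cell markers, led by Cd74, to 9.47, 25.2 and 12.5 CPM, the 3 NK cell markers to 5.72, 8.66 and 2.67 CPM, and the 5 fibroblast and stellate cell markers, with Lrat at 0 throughout, to 0.881, 1.57 and 0.801 CPM. Neutrophil markers, led by S100a8 and S100a9, summed to 66.9, 58.3 and 21.1 CPM in the members and 208, 126 and 3.92 CPM in the remaining hepatocytes. Erythroid markers, led by Hbb-bs, summed to 273, 206 and 281 CPM against 617, 369 and 285 CPM. In lymphocyte barcodes the erythroid markers summed to 3404, 2182 and 1875 CPM.

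**Figure D4:**
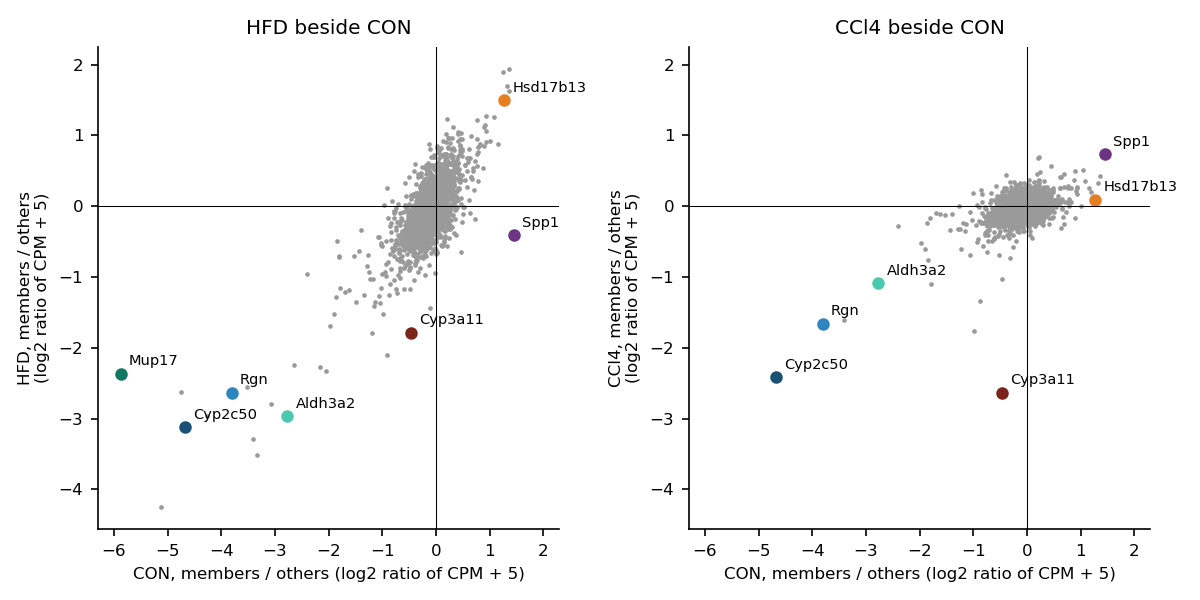
Log2 ratio of CPM plus 5 between the members and the other hepatocytes in CON (horizontal axis) beside HFD and CCl4 (vertical axes), each point a gene with at least 50 CPM in both libraries. Cyp2c50, Rgn and Aldh3a2 lie at the lower left in both panels, Spp1 lies on the opposite side of 0 in HFD, and in CCl4 nearly all genes lie close to 0 on the vertical axis.

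The members of HFD and CCl4 were then set beside those of CON. Both comparisons share the CON members, and the condition cannot be told apart from the library. At a limit of 2 times, 228 of 2632 genes were higher (8.66%) and 165 lower (6.27%) in the HFD members, and 224 and 220 of 2610 genes (8.58% and 8.43%) in the CCl4 members. The median ratio of all genes was 1.11 in HFD and 1.10 in CCl4.

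Acute-phase genes were far lower in both treated libraries than in CON. Of 15 genes 14 were at least 2 times lower in the HFD members and 14 in the CCl4 members, with median ratios of 0.0664 and 0.0489. Saa2, a serum amyloid, had 11033 CPM in the CON members, 131 in HFD and 67.8 in CCl4. Saa1 had 11115, 386 and 161 CPM, and Lcn2, an iron-siderophore binding protein of inflammation, 3516, 44.9 and 43.2 CPM. The metallothionein Mt1 had 8029, 233 and 388 CPM. The remaining hepatocytes showed like gaps, with Saa2 at 11974, 362 and 62.4 CPM, and lymphocyte barcodes carried 7861, 272 and 91.5 CPM, so the gap was also present outside the members. Cxcl10 and Tifa, an adaptor of NF-kB signalling with 568, 39.4 and 12.3 CPM, were also highest in CON.

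Cholesterol synthesis was lower in the same order. Of 19 genes 10 were at least 2 times lower in the HFD members and 15 in CCl4, with medians of 0.440 and 0.185 and 0 genes higher in either. Summed over the list, the members had 11447 CPM in CON, 5463 in HFD and 2546 in CCl4. Lymphocyte barcodes held 2792, 2084 and 1114 CPM, so the background was lower too. Hmgcs1 had 2628 CPM in CON, 505 in HFD and 157 in CCl4, and Idi1 1104, 194 and 61.1 CPM. The list of fatty acid synthesis and glycolysis was higher in HFD for 10 of 12 genes (median 3.16) and in CCl4 for 4 of 11 (median 1.97), with 0 lower in either. Summed over that list, lymphocyte barcodes held 1206 CPM in CON, 9662 in HFD and 3063 in CCl4, so it was also higher in the background. The members had 4235, 25045 and 6286 CPM. Scd1 had 2891, 20995 and 3987 CPM, and Fasn 153, 875 and 307 CPM. Of 22 fatty acid oxidation genes 8 were higher and 0 lower in HFD, and 4 and 1 of 21 in CCl4. The 8 included the peroxisomal thiolase Acaa1b at 77.3, 987 and 320 CPM, Ehhadh at 47.8, 372 and 99.8 CPM and Cyp4a14 at 1301, 4704 and 734 CPM. Lymphocyte barcodes of HFD held 1303 CPM of Acaa1b. Their sum over the fatty acid oxidation list was 2749 CPM in CON, 10026 in HFD and 5769 in CCl4. The members had 6223, 15409 and 7908 CPM of it. In CCl4 14 of 21 amino acid catabolism genes were at least 2 times higher and 0 lower, with a median of 2.35, and in HFD 5 and 0 of 20. Summed over this list, lymphocyte barcodes held 2555 CPM in CON, 5543 in HFD and 10579 in CCl4, so the background rose as well. The members had 7275, 10245 and 17497 CPM, and the remaining hepatocytes 8190, 9284 and 16036 CPM. What part the background had in the differences of these lists was not tested. Ass1 was 3.29 times CON in the CCl4 members (3.17 to 3.42), Tdo2, which starts tryptophan breakdown, 4.58 times, and the glucose-6-phosphatase G6pc 8.50 times (168 to 1427 CPM). In these members 6 of 11 urea cycle and nitrogen genes were at least 2 times higher and 0 lower (median 2.22). Of 12 gluconeogenic genes 6 were higher and 1 lower (median 1.87). Lymphocyte barcodes held 1458 CPM of the urea cycle and nitrogen list in CON and 5783 in CCl4, against 3624 and 8629 in the members. They held 1597 and 5945 CPM of the gluconeogenic list, against 4017 and 9404. The part of this background was not tested.

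**Figure D5:**
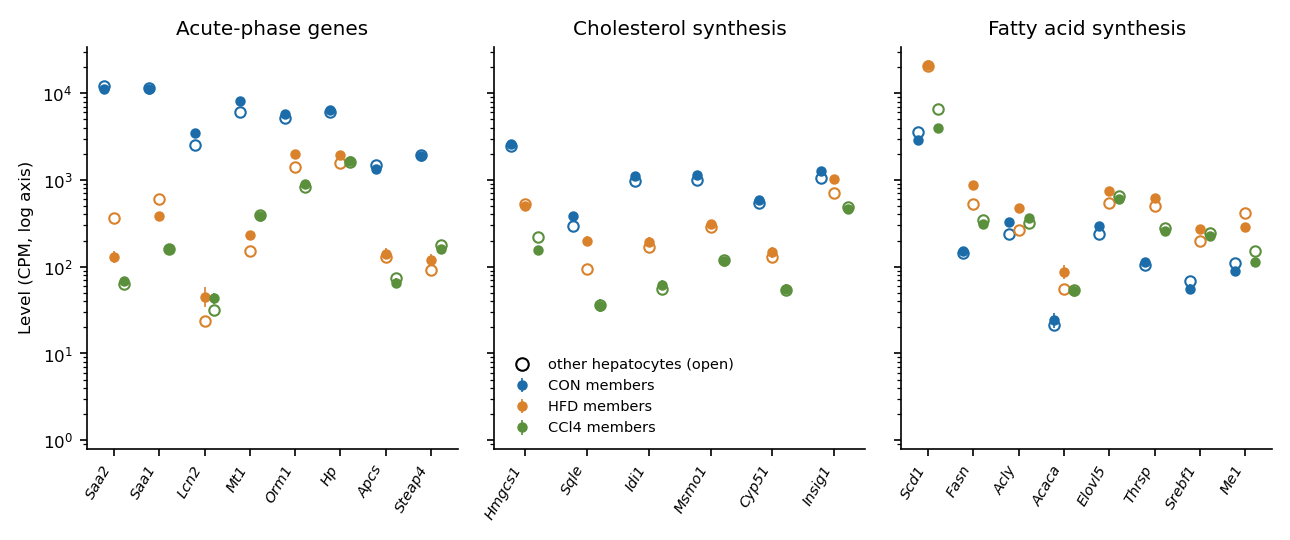
Level in CPM (log axis) of 8 genes of the acute phase, 6 of cholesterol synthesis and 8 of fatty acid synthesis in the members (filled, with 95% counting intervals) and the other hepatocytes (open) of the 3 libraries. The acute-phase and cholesterol genes shown stood highest in CON (Saa2 11033 CPM), fatty acid synthesis genes mostly in HFD (Scd1 20995 CPM). Filled and open points of a library differed less than the libraries did for most genes, but Saa2 in HFD had 131 CPM in the members and 362 in the other hepatocytes.

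Single genes stood out beside these groups. In the HFD members Inmt, a methyltransferase, had 388 CPM against 24.2 in CON (16.0 times, 13.0 to 19.9), Upp2, a uridine phosphorylase, 408 against 39.0, and Mid1ip1, an activator of acetyl-CoA carboxylase, 208 against 15.6. Lymphocyte barcodes held 295 CPM of Inmt in HFD against 22.1 in CON, 170 against 18.1 CPM of Upp2 and 103 against 26.9 CPM of Mid1ip1, so these mRNAs were also higher in the HFD background. Igkc, an antibody light chain, had 183 CPM in the HFD members against 10.3 in CON, while HFD lymphocyte barcodes held 26861 CPM of it. In CCl4 Hamp2 had 716 CPM against 1.98 in CON, from 9 UMIs (361 times, 190 to 791), and 77.2 CPM in HFD. CCl4 lymphocyte barcodes held 671 CPM of Hamp2, so its level in the members is not separated from the background. Cyp2b9 had 80.3 CPM in the CCl4 members, 50.2 CPM in CCl4 lymphocyte barcodes and 0 UMIs in the CON members. Its level in the CCl4 members was 122 times a floor of 3 UMIs over the CON members. That value depends on the chosen floor and is no lower limit of the ratio. G0s2, an inhibitor of triglyceride lipolysis, had 42.5, 165 and 554 CPM, with 866 CPM in CCl4 lymphocyte barcodes, Rgs16, a regulator of G protein signalling that responds to feeding, 25.3, 140 and 322 CPM, Etnppl 33.9, 187 and 426 CPM, and Fam214a 9.47, 57.5 and 141 CPM. Lymphocyte barcodes held 38.5, 51.8 and 140 CPM of Rgs16 and 3.62, 31.8 and 147 CPM of Etnppl. They held 35.1, 65.5 and 67.0 CPM of Fam214a, so the background of these genes was also highest in CCl4. Cyp3a11 had 868 CPM in CON, 794 in HFD and 23.2 in CCl4, where the ratio to CON was 0.0268 in the members and 0.141 in the remaining hepatocytes. CCl4 lymphocyte barcodes held 50.2 CPM of Cyp3a11. Orm2, an acute-phase glycoprotein, had 683, 85.0 and 17.9 CPM.

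The zonal contrast itself changed for some genes. The ratio of members to remaining hepatocytes differed at least 1.5 times between HFD and CON for 123 of 2195 genes (5.60%), and between CCl4 and CON for 99 of 2096 (4.72%). Over the alternatives tried these counts ran from 81 to 364 and from 73 to 318, and the CCl4 contrast is one among hepatocytes of which 83.0% passed the score limit of CON. Cd36, the fatty acid uptake receptor, had 14.8 CPM in the CON members and 99.5 in the remaining hepatocytes, 107 and 214 CPM in HFD, and 141 and 174 CPM in CCl4, so its gap narrowed 3.38-fold in HFD (2.46 to 4.65) and 5.50-fold in CCl4 (4.18 to 7.24). Cyp2c50 narrowed 3.50-fold and 5.40-fold, and Rgn 4.77-fold and Lect2 4.94-fold in CCl4. Lymphocyte barcodes held 179 CPM of Rgn in CON, 700 in HFD and 279 in CCl4, against 43.6, 197 and 128 CPM in the members. They held 78.4, 407 and 107 CPM of Cyp2c50 and 33.4, 92.4 and 65.7 CPM of Lect2. Of Cd36 they held 12.1, 64.0 and 56.7 CPM, against 14.8, 107 and 141 CPM in the members. The background of these genes was thus also higher in HFD and CCl4, and its part in the narrowing was not tested. Ccnd1, the cell cycle regulator cyclin D1, had a ratio of 0.232 in CON and 0.684 in HFD, and Mup17 and Mup11 went from 0.0139 and 0.0355 in CON to 0.173 and 0.152 in HFD. The contrast of Cyp3a11 moved the other way, to 0.401 of that of CON in HFD (0.371 to 0.434) and 0.190 in CCl4 (0.152 to 0.237). The CCl4 members held 87 UMIs of Cyp3a11, 82.8% of them in the 5% of members with most. Lymphocyte barcodes held 244, 992 and 50.2 CPM of Cyp3a11 over the libraries, against 868, 794 and 23.2 CPM in the members. Fam25c and Arl4a became lower in the HFD members relative to CON (0.358 and 0.429 of the CON contrast). Genes high in the CON members had a weaker contrast in CCl4: Hsd17b13 was at 0.437 of its CON contrast, Aqp8, a water channel, at 0.453, Apoa4 at 0.493 and Ctsc at 0.498. In CCl4 this came with a higher level in the remaining hepatocytes for Hsd17b13 (3.19 times CON, against 1.39 times in the members) and Aqp8 (3.96 against 1.79 times), whereas Ctsc and Apoa4 were lower in the CCl4 members than in the CON members (0.454 and 0.483 times). The background moved too: lymphocyte barcodes held 50.1 CPM of Hsd17b13 in CON and 368 in CCl4, 9.21 and 96.6 CPM of Aqp8, and 244 and 568 CPM of Apoa4, whereas Ctsc went from 138 to 108 CPM. Its part in the weaker contrast was not tested.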

How the data were processed

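Single-cell libraries were made with the 10x Genomics 3′ kit. The deposited matrices held unnormalized UMI counts for each gene in each barcode, which the authors made with Cell Ranger 7.2.0 (file headers). The paper names mm10 and the submitters' processing notes GRCm39, so no coordinate was taken from the files. How barcodes were called as cells was not given in the sources used here, and no doublet caller was run.

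UMIs of 55357 features were summed over cells and divided by the total to give CPM (Python 3.11.15, numpy 2.4.6, scipy 1.17.1, pandas 2.3.3). Mitochondrial, ribosomal protein, score and hepatocyte-rule genes were left out of counts and rankings. Ratios printed are of CPM, with exact conditional 95% intervals, while counts, medians, rankings and ratios under the alternatives use CPM plus 5. Steps were checked on simulated counts. Named genes were the 10 highest and 6 lowest ratios per library and, for genes compared in all 3, by geometric mean, the 6 highest and 6 lowest between libraries, the 5 each way whose ratio differed most, and members of 16 gene lists. Members, lists and limits were chosen with earlier results of these data known. Lymphocyte barcodes were first to hold under 20 UMIs of Alb, Apob and Cps1, which gave 2699, 0 and 0 barcodes, so the definition was changed after the data were seen. The 11 alternatives, and 2 added later, are in the closing section. Some genes counted in the lists are not reported here by name.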

Additional observations from a re-analysis of the deposited data

How the results depend on the processing

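No paired analysis was possible because each condition has 1 library. Of 18 counts under 13 alternatives, 192 of 234 values stayed within 1.5 times. Of 1924 gene ratios of CPM plus 5, 1391 moved by less than their counting interval, 529 by more and 4 changed sides: Spp1 in CCl4 (0.889 for the lowest 25% of scores, 0.846 for scores per 1000 UMIs, 0.781 for the added hepatocyte limit) and the HFD over CON contrast of Spp1 (1.15 at a mitochondrial floor of 5%). Counts of genes 1.5 times higher and lower in the members were 60 and 151 in CON, 129 and 200 in HFD and 6 and 19 in CCl4. Against the upper part alone they became 151 and 392, 293 and 425, and 16 and 50, with 12 periportal landmarks in CCl4 and 310 (HFD) and 318 (CCl4) genes of changed contrast. A minimum of 20 CPM gave 108 and 234, 239 and 395, and 11 and 47, with 18 pericentral landmarks in CCl4, 349 genes higher and 248 lower in HFD than CON, 352 higher in CCl4, and 364 and 220 of changed contrast. In HFD a mitochondrial floor of 5% gave 231 and 361, with 295 of changed contrast, and the middle 50% of depth 233 and 349, with 263, and 212 in CCl4. Scaling outside abundant genes gave 104 higher in CON, 230 higher in HFD, 33 lower in CCl4 and 154 of changed contrast in CCl4. It moved the median log2 ratio by 0.09 in CON and 0.06 in HFD. Scores per 1000 UMIs gave 10 periportal landmarks in CCl4. The common score limit gave 50 and 95 in CCl4, with 18 periportal and 18 pericentral landmarks, and 81 of changed contrast in HFD. The added hepatocyte limit gave 24 and 54 in HFD with 8 periportal landmarks, and 3 higher in CCl4. The upper part as comparison leaves out the middle cells, and a lower minimum tests more genes. The cause of the other shifts was not tested.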
